A study of Mus musculus with 4 samples.

Results

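Collagens are the triple-helical proteins of the extracellular matrix, and 40 collagen genes were followed here on 4 microarrays of mouse hypothalamus. They are the genes whose symbol has the form Col, a number, a and a number. That pattern took 42 probe sets for 41 genes among the 21265 genes that a probe set with 1 gene identifier measured. One of the 41, Col4a3bp, encodes a ceramide transfer protein and no collagen chain, and was kept apart. The 40 fall into 11 genes of the fibrillar collagens, 6 of type IV, the network collagen of basement membranes, and 23 of other types.

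The study compared hypothalamic RNA of 12 week old male mice without treatment, 2 arrays of wild-type animals (control A and B) and 2 arrays of animals carrying a ΔFosB transgene (ΔFosB A and B). The sample labels write the genotype as ENOI2DeltaFosB and the series title as ENO2DeltaFosB. Eno2 encodes neuron-specific enolase, and its promoter is commonly used to express a transgene in neurons. The labels do not say whether 2 arrays of a group came from separate animals or pools, so every p-value measures only the spread between these arrays, which may be technical. With 2 arrays against 2, an exact permutation test of one gene cannot go below p = 0.333, and all adjusted p-values come from limma fitted across genes and adjusted over 14520 genes by the Benjamini-Hochberg method, with 0.05 as the threshold. Folds are ΔFosB minus control on the log2 scale.

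Collagen chains wind together into a triple helix, and the chains of a molecule are often the products of different genes. Fibrillar collagens assemble into banded fibrils, type IV collagens form the sheet that underlies endothelium and the glial surface of the brain, and others bind fibrils, form beaded filaments or span the cell membrane. In brain tissue, fibroblasts of the meninges and large vessels make most of the fibrillar collagen, vascular cells make type IV collagen, and neurons make some transmembrane and fibril-associated collagens. ΔFosB is a truncated product of Fosb that pairs with Jun proteins to form the transcription factor AP-1.

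Of the 40 collagen genes, 38 had a higher mean log2 signal on the ΔFosB arrays. Their median log2 fold change was 0.19, with a range from -0.09 to 0.35. Both ΔFosB arrays lay above both control arrays for 32 of the 40, and both lay below for 1, Col11a1. The same held, in the higher direction, for 39.5% of all 21265 genes. A filter on low signal, a mean of at least 717 or the upper 60% of probe sets, left 34 of the 40 genes for the test, and 3 of those 34, Col1a1, Col1a2 and Col25a1, were called higher and 0 lower. Among all 14520 genes tested, 13.1% were called in either direction and 6.18% were called higher, and among the 9521 tested genes in the collagens' range of signal 6.86% were called higher. Read against these shares, 3 of 34 is not a result about the collagens. At an unadjusted p below 0.05, 22 of the 34 were higher and 0 were lower, where the shares of higher genes were 16.7% of all tested genes and 19.4% of those in the collagens' signal range. The genes share the same 4 arrays, so these counts are not independent observations. Without control A, 0 collagen genes were called and 4 were higher at an unadjusted p below 0.05. In this and every other fit without an array, the lone array of its group is assumed to vary like the pair of the other group, which with limma's prior alone gives the spread.

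**Figure D1:**
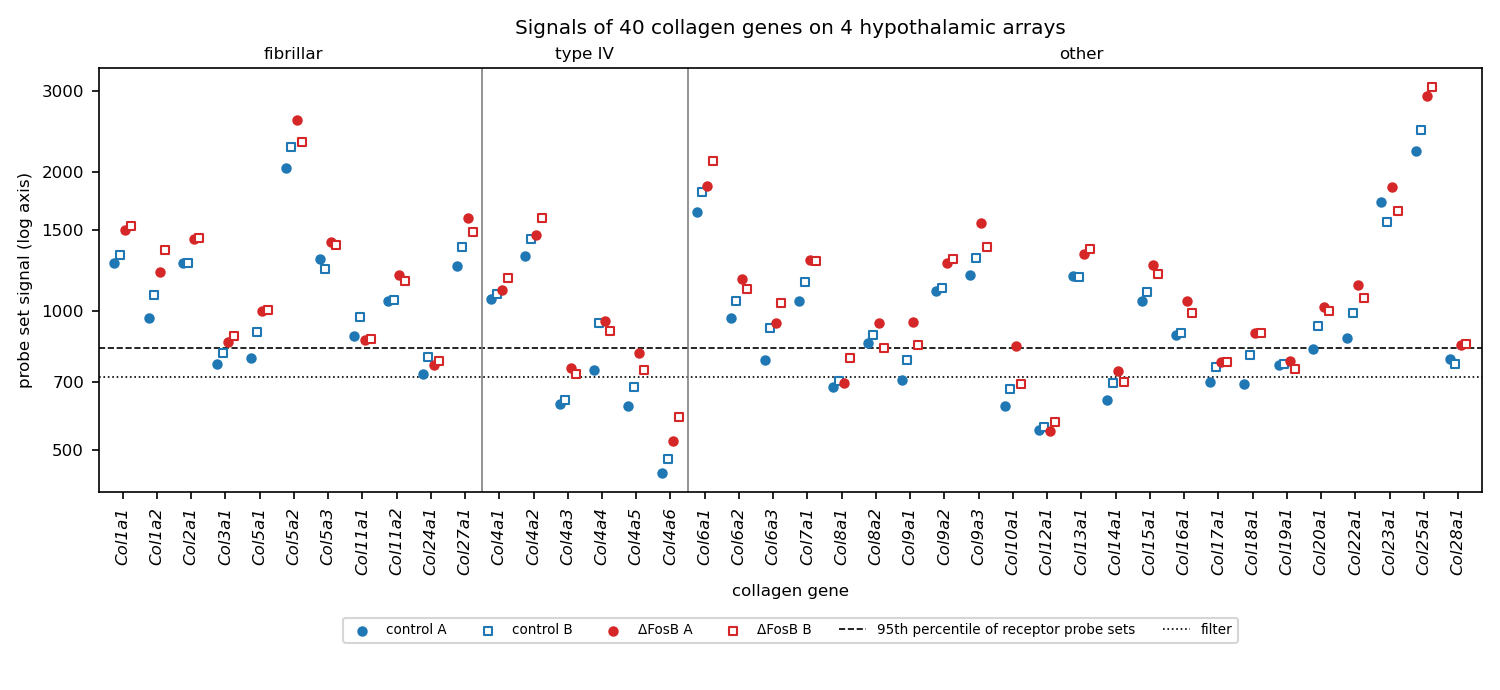
Probe set signal (log axis) of the 40 collagen genes on each of the 4 arrays, ordered by class, with filled circles for the A arrays and open squares for the B arrays. The dashed line is the 95th percentile of probe sets for odour and pheromone receptors (831) and the dotted line the filter (717). In 32 of the 40 genes both red points lie above both blue points.

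The signal itself differed between the groups of arrays. Olfactory and vomeronasal receptor genes, which serve the nose and are not known for hypothalamic expression, have 1216 probe sets on the array with a median signal of 299. Their median log2 fold change was 0.15, 81.1% lay above 0, and in 47.8% both ΔFosB arrays lay above both control arrays. The median over all 21265 genes was 0.05, with 63.6% above 0, and over the 14520 genes tested it was 0.02. The 34 tested collagen genes had a median of 0.19 beside 0.04 for the 9521 genes in their signal range. Where the mean log2 signal lay between 9.5 and 10, the median was 0.15 for 15 collagen genes and 0.10 for all genes, and in the next band of the same width it was 0.19 for 14 collagen genes and 0.05 for all genes. Of the 40 collagen genes, 10 stayed under the receptors' 95th percentile of 831 in both groups, 4 in the control group only, and 26 in neither. Receptor genes also differed within groups, by a median of 0.08 for control B minus control A and -0.04 for ΔFosB B minus ΔFosB A. How much of the collagens' difference the shift between groups accounts for was not tested.

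**Figure D2:**
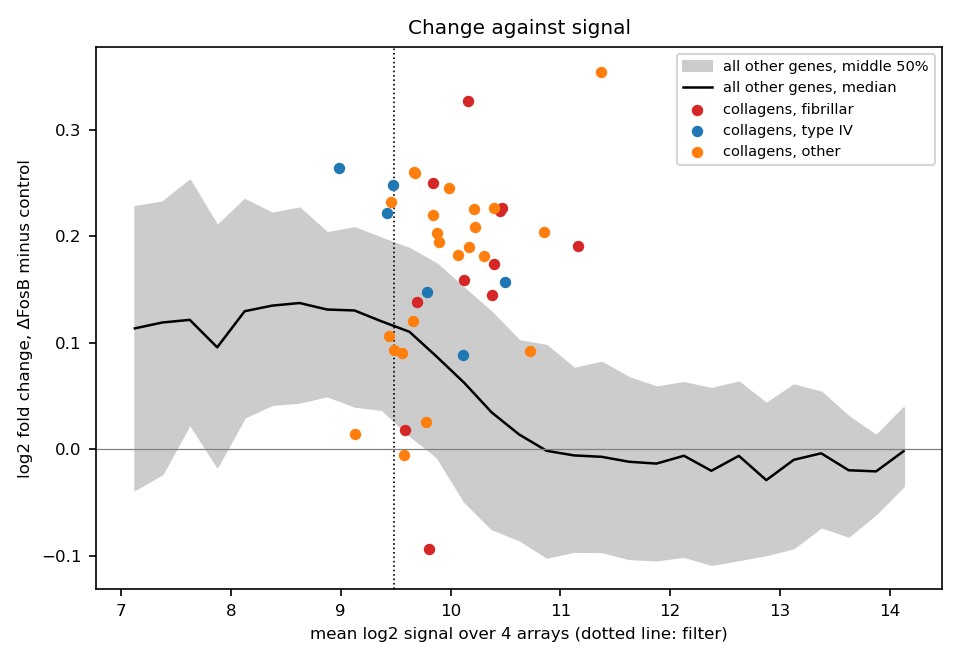
Log2 fold change (ΔFosB minus control) against mean log2 signal over the 4 arrays, for the 40 collagen genes (coloured points) and all other genes in bins of 0.25 (line, median; grey band, middle 50%). The line lies above 0 at low signal and near 0 at high signal, and most collagen points lie above it.

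Cyclic loess, a normalization that removes signal-dependent shifts between arrays, brought the median of the tested genes to 0.00 and left the receptor genes at 0.06. After it the median of the 34 tested collagen genes was 0.13, and 28 of them lay above 0, beside 49.9% of all genes tested. One collagen gene, Col25a1, was then called higher, beside 4.63% of all genes tested, and 11 were higher at an unadjusted p below 0.05, beside 12.3% of all genes tested. This normalization was chosen after seeing the data. In the fit with no filter, where 3.9% of 21265 genes were called higher, Col25a1 was the 1 collagen gene called.

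The 2 control arrays also differed from each other in the collagens. Control B lay above control A in 35 of the 40 collagen genes, or 87.5%, and in 59.2% of all genes and 65.9% of receptor genes. ΔFosB B lay above ΔFosB A in 19 of the 40. The median of the collagens' log2 signal was 9.78 and 9.90 on control A and B and 10.01 and 9.99 on ΔFosB A and B. The median difference of the ΔFosB mean was 0.23 from control A and 0.16 from control B. Summed signal over all probe sets was between 68636594 and 68961786 on the 4 arrays.

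Col25a1 encodes the transmembrane collagen XXV, which neurons make and whose shed ectodomain is found with amyloid plaques in Alzheimer's disease. Its signal was 2214 and 2464 in the controls against 2923 and 3052 with ΔFosB. The groups did not overlap, and the gap between them was larger than either pair's difference. The mean rose from 2339 ± 177 (SD, n = 2) to 2987 ± 91.4 (SD, n = 2), a fold of 1.28 and a log2 difference of 0.35 (SE 0.07, adjusted p = 0.0129). Cyclic loess left it at 0.36 (adjusted p = 0.0121). The call was lost without control A, at 0.28 (adjusted p = 0.0927), and in the unmoderated test, which pools no variance across genes (adjusted p = 0.271).

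The other transmembrane collagens are Col13a1, found at cell adhesions and the neuromuscular junction, Col17a1 of skin hemidesmosomes, and Col23a1. Col13a1 gave 1189.8 and 1184 in the controls against 1327 and 1365 with ΔFosB, a log2 difference of 0.18 (SE 0.06, adjusted p = 0.0903). Its groups did not overlap. Col17a1 had a log2 change of 0.09 (SE 0.07, adjusted p = 0.445) and Col23a1 had a log2 change of 0.09 (SE 0.08, adjusted p = 0.471). Both group means of Col17a1 lay in the receptors' range. The Col23a1 groups overlapped, since ΔFosB B at 1642 lay below control A at 1718.

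Col1a1 and Col1a2 encode the 2 kinds of chain in collagen I, the main fibrillar collagen of connective tissue. Col1a1 gave 1269 and 1319 in the controls against 1496 and 1526 with ΔFosB, and the mean rose from 1294 ± 35.4 (SD, n = 2) to 1511 ± 20.9 (SD, n = 2). Col1a2 gave 966 and 1081 in the controls against 1213 and 1356 with ΔFosB, and the mean rose from 1023 ± 80.8 (SD, n = 2) to 1284 ± 101 (SD, n = 2). For both chains the 2 ΔFosB arrays lay above the 2 control arrays. The log2 fold change was 0.22 (SE 0.06, adjusted p = 0.0482) for Col1a1 and 0.33 (SE 0.08, adjusted p = 0.0363) for Col1a2. Both calls lay near the threshold and were lost after cyclic loess, at 0.19 (adjusted p = 0.0836) for Col1a1 and 0.27 (adjusted p = 0.0663) for Col1a2. The Col1a1 call was lost without any one of the 4 arrays (adjusted p between 0.0776 and 0.249), and the Col1a2 call without control A (adjusted p = 0.219) or without ΔFosB B (adjusted p = 0.117).

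**Figure D3:**
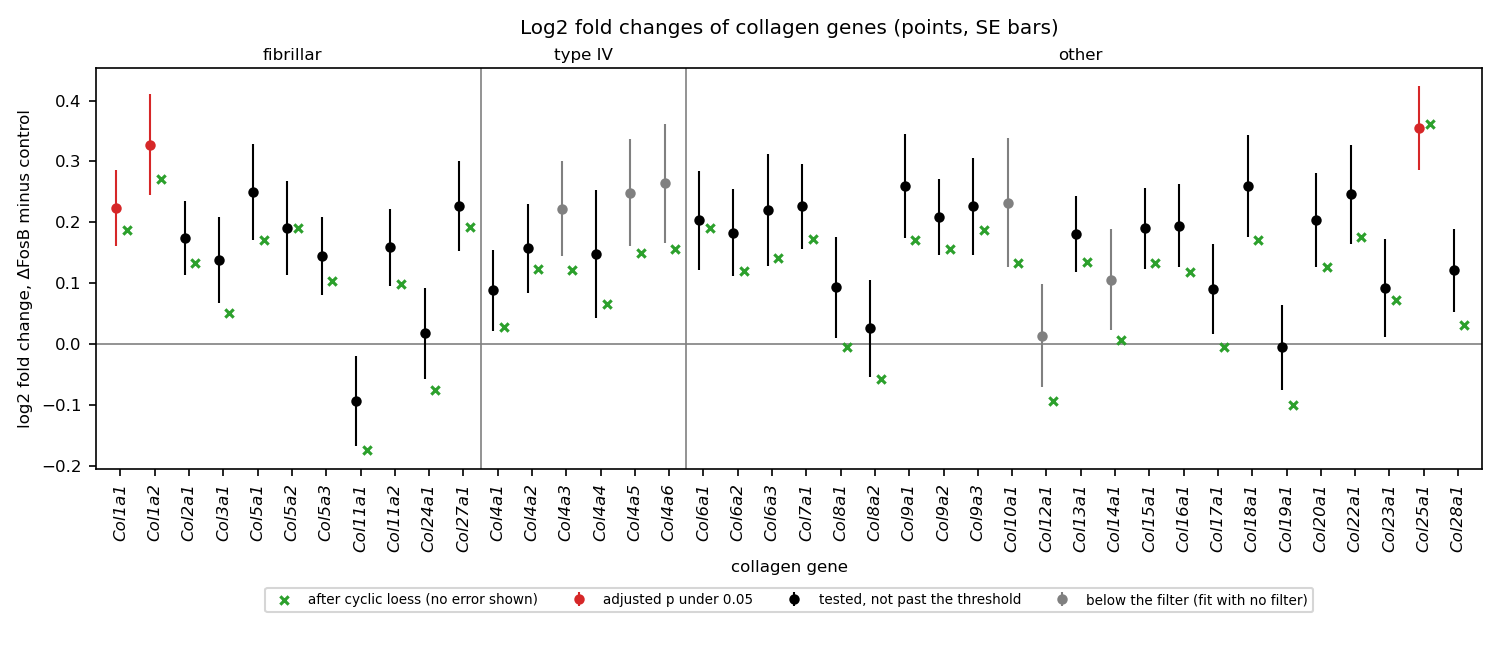
Log2 fold change (ΔFosB minus control) of each collagen gene with its standard error (points and bars), coloured by the test, and the value after cyclic loess (green crosses). Col1a1, Col1a2 and Col25a1 passed the threshold, and 2 genes, Col11a1 and Col19a1, lay below 0 before cyclic loess.

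Promoter sequence from RefSeq (GRCm38.p6), the 250 bases before the annotated start, was on hand for 32 of the 40 collagen genes. It is shown for Col1a2 and Col25a1, the genes called higher that had an entry, and for Col6a1, the 1 collagen gene whose 250 bases hold the AP-1 consensus TGANTCA. Capitals mark that consensus or CCAAT, the CCAAT box bound by the factor NF-Y, each searched on both strands, and the strings can share at most 1 base.
Col1a2, chr6:4505368-4505617, plus strand, CCAAT from base -109: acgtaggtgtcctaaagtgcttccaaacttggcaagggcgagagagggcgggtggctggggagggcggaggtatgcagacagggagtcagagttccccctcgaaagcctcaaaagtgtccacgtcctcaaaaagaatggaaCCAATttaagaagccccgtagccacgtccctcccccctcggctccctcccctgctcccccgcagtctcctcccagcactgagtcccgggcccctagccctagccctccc
Col25a1, chr3:130180595-130180844, plus strand, CCAAT from base -191: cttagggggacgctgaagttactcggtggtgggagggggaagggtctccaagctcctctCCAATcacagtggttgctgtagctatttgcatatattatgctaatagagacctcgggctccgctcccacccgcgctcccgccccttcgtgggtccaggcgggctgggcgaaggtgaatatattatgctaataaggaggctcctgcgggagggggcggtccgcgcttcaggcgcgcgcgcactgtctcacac
Col6a1, chr10:76726045-76726294, minus strand, AP-1 consensus from base -90: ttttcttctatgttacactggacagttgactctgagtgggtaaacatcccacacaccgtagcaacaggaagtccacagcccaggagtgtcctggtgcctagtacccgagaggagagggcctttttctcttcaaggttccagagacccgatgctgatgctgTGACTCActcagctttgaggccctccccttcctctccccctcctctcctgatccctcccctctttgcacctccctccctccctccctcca
TGANTCA was found in 6.75% of all 32851 promoters and in 1 of the 32 collagen genes, and CCAAT in 33.8% of all promoters and in 12 of the 32. The shares over all count promoters, while a collagen gene counted if any promoter of it matched, so the units differ. A match is a description of these letters and not a site in use.

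Fibrillar collagens were all above the filter, 11 of 11. Of these, 2 were called higher and 0 lower, 8 were higher at an unadjusted p below 0.05, and 9 had groups that did not overlap with ΔFosB higher. Of all genes tested, 6.18% were called higher and 16.7% were higher at an unadjusted p below 0.05. Groups did not overlap with ΔFosB higher in 39.5% of all genes. Their median log2 fold change was 0.17. Col5a1, a chain of collagen V that starts fibril assembly, gave 789.7 and 898 in the controls against 1000.4 and 1002 with ΔFosB. Its groups did not overlap, and control A was the lowest array. Its log2 fold change was 0.25 (SE 0.08, adjusted p = 0.0722). Without control B the adjusted p was 0.0473, at 0.34, in a fit that set control A alone against the 2 ΔFosB arrays and took the spread from these, which lay close together. Col5a2, another collagen V chain, had a log2 change of 0.19 (SE 0.08, adjusted p = 0.139), and a second probe set of the gene, with signals 523 and 548 against 621 and 660.4, had 0.26. Col5a3 had a log2 change of 0.14 (SE 0.06, adjusted p = 0.163), Col27a1, a fibrillar chain of cartilage, had a log2 change of 0.23 (SE 0.07, adjusted p = 0.0784), and Col2a1, the main chain of cartilage, had a log2 change of 0.17 (SE 0.06, adjusted p = 0.0955). None of these 4 genes passed the threshold.

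Col3a1, the chain of collagen III in vessel walls, gave 766 and 811 in the controls against 855 and 881 with ΔFosB. The groups did not overlap, but the control signals lay in the receptors' range. Its log2 fold change was 0.14 (SE 0.07, adjusted p = 0.223). Col11a1, a chain of collagen XI that sets fibril width in cartilage, gave 882 and 969 in the controls against 867 and 867 with ΔFosB. Here both ΔFosB arrays lay below both control arrays, the 1 such collagen gene. Its log2 fold change was -0.09 (SE 0.07, adjusted p = 0.425), and it was -0.17 after cyclic loess (adjusted p = 0.13). Its partner Col11a2 had the opposite sign, at 0.16 (SE 0.06, adjusted p = 0.134). Col24a1, a minor fibrillar collagen of bone and cornea, gave 730.1 and 796 in the controls against 765 and 778 with ΔFosB, with overlapping groups and a log2 difference of 0.02 (SE 0.07, adjusted p = 0.896). Both of its group means lay in the receptors' range.

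Type IV collagen is the network former of basement membranes, and 0 of its 3 tested genes passed the threshold or an unadjusted p below 0.05. Of its 6 genes, 5 had groups that did not overlap with ΔFosB higher, and the median log2 fold change was 0.19. Both ΔFosB arrays also lay above both control arrays in 39.5% of all genes and in 47.8% of receptor probe sets. Col4a1 and Col4a2 encode the chains found in nearly all basement membranes and lie head to head on chromosome 8, with annotated starts 21 bases apart. Col4a1 gave 1058 and 1090.3 in the controls against 1108 and 1176 with ΔFosB, a log2 difference of 0.09 (SE 0.07, adjusted p = 0.409). Col4a2 gave 1313 and 1428 in the controls against 1463 and 1593 with ΔFosB, a log2 difference of 0.16 (SE 0.07, adjusted p = 0.185). In both genes ΔFosB B was the highest array and control A the lowest. Col4a4, a chain of kidney and cochlear basement membranes, gave 745 and 939 in the controls against 950.5 and 904 with ΔFosB, with overlapping groups and 0.15 (SE 0.11, adjusted p = 0.38).

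Col4a3, Col4a5 and Col4a6 lay below the filter, in the receptors' range in both groups. Col4a5 and Col4a6 are a second head to head pair, on chromosome X, with starts 1343 bases apart. Without a filter the log2 fold change was 0.22 (SE 0.08) for Col4a3, 0.25 (SE 0.09) for Col4a5 and 0.26 (SE 0.10) for Col4a6. In that limma fit the unadjusted p was 0.0196, 0.0205 and 0.0249 in that order. The adjusted p was 0.114, 0.117 and 0.129, so none passed the threshold. The receptor genes themselves had a median of 0.15.

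The 23 other collagen genes had a median log2 fold change of 0.19. Of the 20 tested, 1, Col25a1, was called higher and 0 lower, and 14 were higher at an unadjusted p below 0.05. The shares of all genes tested were 6.18% called higher and 16.7% higher at an unadjusted p below 0.05. Fibril-associated collagens, which coat or link fibrils, held 9 of the 23. Of the 9, 7 had groups that did not overlap with ΔFosB higher, beside 39.5% of all genes. Col9a2, a chain of collagen IX on cartilage fibrils, gave 1102 and 1121 in the controls against 1272 and 1298 with ΔFosB. The differences within each pair were far smaller than that between groups. Its log2 fold change was 0.21 (SE 0.06, adjusted p = 0.0606). The other chains of the same molecule gave 0.26 (SE 0.09, adjusted p = 0.0807) for Col9a1 and 0.23 (SE 0.08, adjusted p = 0.0972) for Col9a3. The control mean of Col9a1, 745, lay in the receptors' range. Col16a1 had a log2 change of 0.19 (SE 0.07, adjusted p = 0.0963), Col20a1 had a log2 change of 0.20 (SE 0.08, adjusted p = 0.115) and Col22a1 had a log2 change of 0.25 (SE 0.08, adjusted p = 0.0813). Col12a1 and Col14a1, which bind collagen I fibrils, lay below the filter, with 0.01 (SE 0.08) and 0.11 (SE 0.08).

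Col19a1, a fibril-associated collagen that some neurons make, gave 764 and 767 in the controls against 777 and 748 with ΔFosB. The groups overlapped and the log2 fold change was -0.0056 (SE 0.07, adjusted p = 0.966), in the receptors' range in both groups.

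The 3 chains of collagen VI, the beaded filament of vessels and nerves, all had groups that did not overlap with ΔFosB higher. That held for 39.5% of all genes. Col6a1 had signals of 1639 and 1810.0 against 1859.7 and 2116 and a log2 difference of 0.20 (SE 0.08, adjusted p = 0.132). Col6a2 had a log2 change of 0.18 (SE 0.07, adjusted p = 0.126) and Col6a3 had a log2 change of 0.22 (SE 0.09, adjusted p = 0.148). None passed the threshold, and all 3 were higher at an unadjusted p below 0.05. So were 16.7% of all genes tested and 19.4% of those in the collagens' signal range. Col28a1, a related chain made by Schwann cells, had a log2 change of 0.12 (SE 0.07, adjusted p = 0.266). Its control mean lay in the receptors' range. Col15a1 and Col18a1, the basement membrane collagens whose C-terminal fragments are restin and endostatin, had log2 changes of 0.19 (SE 0.07, adjusted p = 0.0943) and, in that order, 0.26 (SE 0.08, adjusted p = 0.0776). The control mean of Col18a1, 750, lay in the receptors' range.

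Col7a1, the anchoring fibril collagen of skin, gave 1049 and 1152 in the controls against 1290.4 and 1281 with ΔFosB, with groups that did not overlap and a log2 difference of 0.23 (SE 0.07, adjusted p = 0.0674). The short-chain network collagens Col8a1 and Col8a2, of vessel walls and the cornea's inner membrane, showed no such separation. Col8a1 gave 685 and 706 in the controls against 697 and 789.9 with ΔFosB, a log2 difference of 0.09 (SE 0.08, adjusted p = 0.48). Both of its group means lay in the receptors' range. Col8a2 gave 852 and 886 in the controls against 941 and 831 with ΔFosB, a log2 difference of 0.03 (SE 0.08, adjusted p = 0.857). After cyclic loess both were just below 0. Col10a1, the network collagen of growth plate cartilage, lay below the filter with 0.23 (SE 0.11). Col4a3bp, which encodes no collagen, gave 3448 and 3890.3 in the controls against 3595 and 3409 with ΔFosB and -0.07 (SE 0.07, adjusted p = 0.565).

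Markers of collagen-producing cells did not move as one. Beside the counts of markers called below, 13.1% of all genes tested were called in either direction and 6.18% higher. For meningeal and vascular fibroblasts, 12 of 12 markers were measured and 8 tested, and the 2 that passed were Col1a1 and Col1a2 themselves. The summed signal of the other 10 was 10913 and 11121 in the controls against 11093 and 16906 with ΔFosB. ΔFosB B thus stood apart from the other 3 arrays. Igf2, a growth factor of leptomeninges, gave 1602 and 1693 against 1426 and 3617. Ogn, the matrix proteoglycan osteoglycin, gave 332 and 319.6 against 283 and 1320.5, and Fmod, fibromodulin, which binds collagen fibrils, gave 843 and 817 against 808 and 1432. No marker was at 0, and 4 of the 12 lay in the receptors' range in both groups. Col1a1 was not higher on ΔFosB B alone: with ΔFosB A and without ΔFosB B its log2 fold change was 0.21, and that of Col1a2 was 0.25. In bulk tissue, fewer cells of a type and less RNA per cell cannot be told apart.

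**Figure D4:**
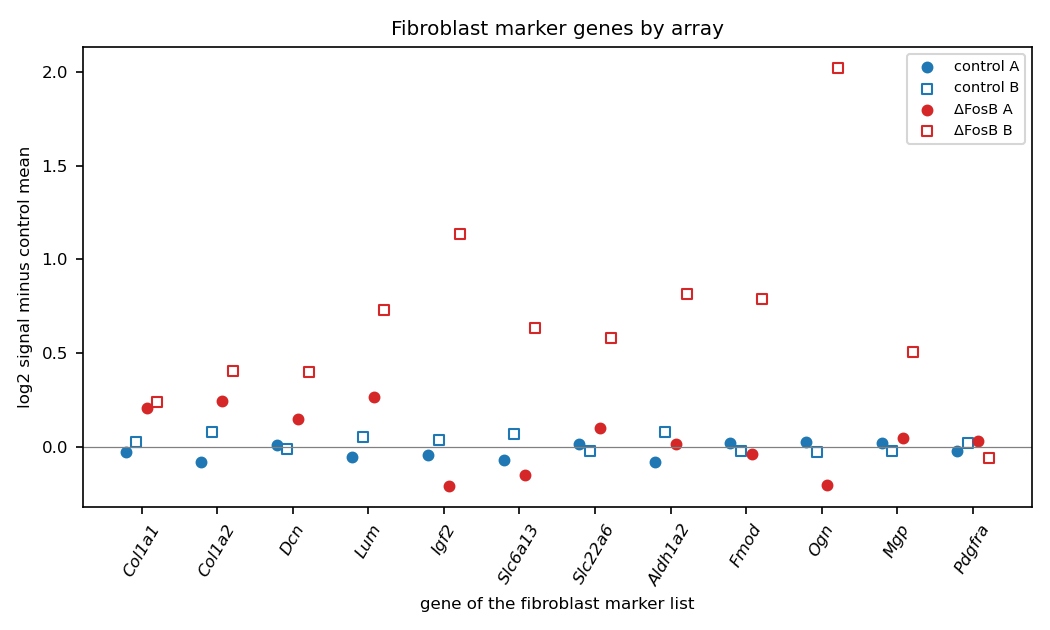
Log2 signal of the 12 fibroblast markers on each array, minus the mean of the 2 control arrays. On ΔFosB B every marker except Pdgfra lies above the other arrays, while Col1a1 and Col1a2 are above the control mean on both ΔFosB arrays.

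Endothelial cells are a main source of type IV collagen. Their 11 measured markers were all tested, 6 were lower and 0 higher, and their summed signal was 18475 and 19254 in the controls against 16321 and 16415 with ΔFosB. Among them Tek, an angiopoietin receptor, fell by 0.39 on the log2 scale (adjusted p = 0.00943), and Slco1a4, a transporter of the blood-brain barrier, fell by 0.41 (adjusted p = 0.00986). Of the 8 tested markers of pericytes and smooth muscle, 1, Rgs5, was lower. Of the 3 tested type IV collagens, 0 were called lower. Choroid plexus markers summed to 6011 and 7550.1 in the controls against 6889 and 7351 with ΔFosB. Of 6 tested markers 3, Kl, Folr1 and Kcne2, were higher and 0 lower, and after cyclic loess 2 were higher. The control means of Kl and Folr1, 636 and 711, lay in the receptors' range. By their mean over the 4 arrays, 4 of the 8 markers lay there. Otx2, a transcription factor of the choroid plexus below the filter, went the other way, with signals of 825 and 873 against 433 and 409, and in the fit with no filter it fell by 1.01 on the log2 scale (adjusted p = 0.000366). Ttr, transthyretin, the main secreted protein of that tissue, gave 849.9 and 1806 against 848 and 1206 and a log2 change of -0.29 (SE 0.30, adjusted p = 0.535). The part of any of these cell types in the collagen values was not tested.

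The labelled tissue was checked on its own markers. Among hypothalamic neuron genes, 8 of 12 were called higher and 0 lower, with summed signals of 18381 and 29429.8 in the controls against 49759 and 51084 with ΔFosB. Oxt gave 853 and 942 against 6912 and 7674, and Trh 915 and 1095 against 4968 and 5201. Pomc gave 804 and 811 against 1588 and 1606, and Nr5a1 624 and 673 against 908 and 912. In the controls Pomc and Nr5a1 lay under the receptors' 95th percentile of 831, and Oxt and Trh somewhat above it. Npy, also called higher, gave 1936 and 1940 against 3821 and 3639.5, and Sim1 1399 and 1433 against 1786 and 1794. By their mean over the 4 arrays, 3 of the 12 lay in the receptors' range. Hcrt, at 2557 and 7256, and Pmch, at 6076 and 11170, were the highest in the controls. A difference in the tissue sampled cannot be told apart from genotype here. All 10 myelin genes were lower, with sums of 104897 and 107715 in the controls against 72891 and 78488 with ΔFosB. Of the astrocyte markers 1 was higher and 3 were lower of 8, of the microglial markers 0 of 5 passed (0 also at an unadjusted p below 0.05), and of the tanycyte and ependymal markers 3 were higher and 1 lower of 8. Of 8 pituitary markers 7 lay in the receptors' range by their mean over the 4 arrays. Of the 2 tested 0 passed, and 1 was at an unadjusted p below 0.05, as were 4423 of all 14520 genes tested. Cga, the alpha subunit of the pituitary glycoprotein hormones, lay below the filter but gave 431 and 474 against 1316 and 902, with both ΔFosB arrays above the receptors' 95th percentile, and rose by 1.27 in the fit with no filter (adjusted p = 0.00205). Fosb gave 1377 and 1219.8 against 1579 and 2189, a log2 difference of 0.52 (SE 0.13, adjusted p = 0.0389). Where its probes lie was not known here, so they do not check the transgene.

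Before collagen leaves the cell its chains are hydroxylated, glycosylated and folded. Of 20 genes for these steps, all tested, 2 were higher, 2 lower and 16 did not pass, and the median log2 fold change was 0.07. Beside the counts of this and the following lists, 13.1% of all genes tested were called in either direction and 6.18% higher. Plod2, a lysyl hydroxylase of the telopeptides, gave 758 and 837 in the controls against 969 and 984 with ΔFosB, and its log2 fold change was 0.29 (SE 0.07, adjusted p = 0.0359). P3h3, a prolyl hydroxylase family member, gave 1361 and 1495 in the controls against 1661 and 1825 with ΔFosB, a log2 difference of 0.29 (SE 0.08, adjusted p = 0.0399). For both genes the groups did not overlap. The control mean of Plod2, 797, lay in the receptors' range. Colgalt2, a collagen galactosyltransferase, gave 1141 and 1032 in the controls against 855 and 698 with ΔFosB, a log2 difference of -0.49 (SE 0.10, adjusted p = 0.0169). Ppib, the cyclophilin that isomerizes prolines in collagen, gave 5867 and 5969 in the controls against 5335 and 4999.7 with ΔFosB, a log2 difference of -0.20 (SE 0.05, adjusted p = 0.0472). After cyclic loess only Colgalt2 of these 4 passed (adjusted p = 0.00904). The call of Colgalt2 was lost without control A (adjusted p = 0.112), and those of Plod2, P3h3 and Ppib each held in 1 of the 4 fits without an array. Without control A the list had 0 genes higher and 0 lower, without control B 1 higher and 1 lower, and without ΔFosB B 0 higher.

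**Figure D5:**
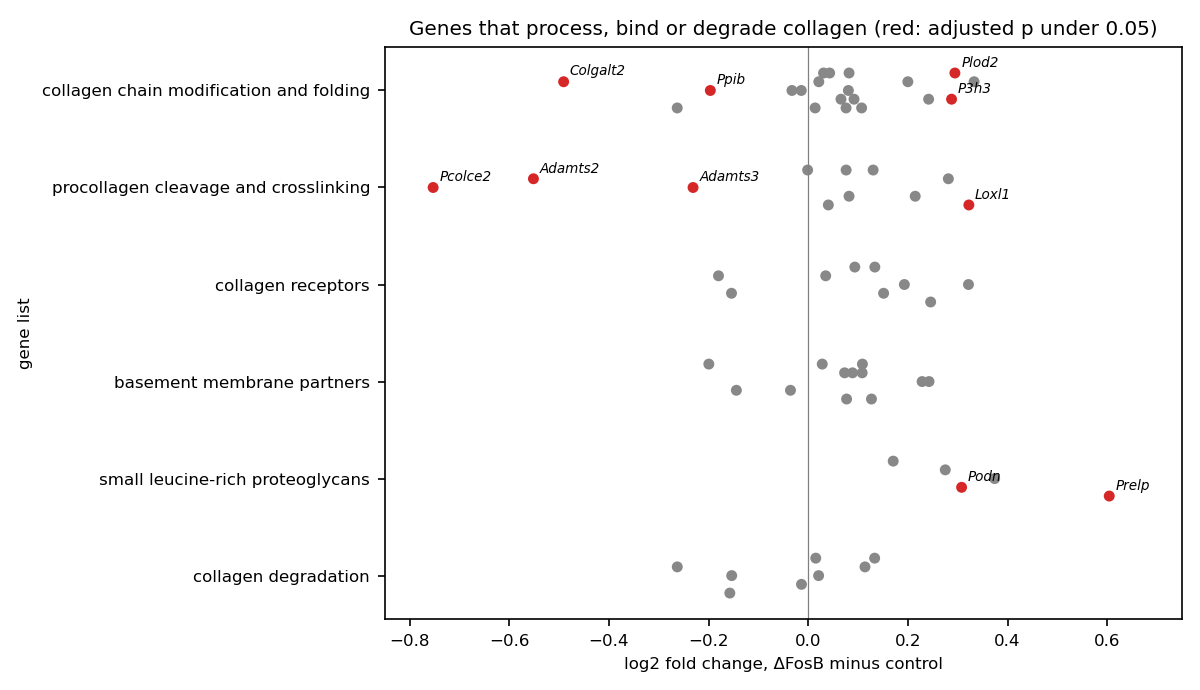
Log2 fold change (ΔFosB minus control) of the tested genes of 6 lists of collagen partners, 1 point a gene, with those past the threshold in red and named. Pcolce2 and Adamts2 lie farthest to the left and Prelp farthest to the right.

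Outside the cell, procollagen is trimmed by proteases and its fibrils are crosslinked. Of 15 such genes 11 were tested, with 1 higher, 3 lower and 7 not past the threshold, and a median of 0.08. Pcolce2, an enhancer of the C-proteinase, gave 1912 and 1806 in the controls against 1096 and 1109 with ΔFosB. Adamts2, an N-proteinase of procollagen, gave 2085 and 1950.1 in the controls against 1336 and 1418 with ΔFosB. In both genes the groups were wide apart, with -0.75 (SE 0.06, adjusted p = 0.000274) for Pcolce2 and -0.55 (SE 0.07, adjusted p = 0.00138) for Adamts2. Both calls held after cyclic loess and in all 4 fits without an array. Adamts3, a related N-proteinase, had a log2 change of -0.23 (SE 0.06, adjusted p = 0.0387), and held after cyclic loess but in 0 of 4 fits without an array (adjusted p between 0.0647 and 0.177). Loxl1, a lysyl oxidase family member, gave 911 and 988 in the controls against 1235 and 1139 with ΔFosB, with 0.32 (SE 0.07, adjusted p = 0.0258). Its call was lost without control A (adjusted p = 0.17) and without ΔFosB A (adjusted p = 0.0798). Pxdn, peroxidasin, which forms sulfilimine crosslinks in type IV collagen, had a log2 change of 0.21 (SE 0.07, adjusted p = 0.0655). The list had 0 genes higher without control A and 2 without ΔFosB A.

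Small leucine-rich proteoglycans bind collagen fibrils and limit their growth. Of 12, 5 were tested, 2 were higher and 0 lower, and the median of those 5 was 0.31. Prelp, which anchors basement membranes to connective tissue, gave 1517 and 1553 in the controls against 2131 and 2553 with ΔFosB, a log2 difference of 0.60 (SE 0.09, adjusted p = 0.00303). Its call held after cyclic loess and in all 4 fits without an array. Podn, podocan, gave 802 and 821 in the controls against 947 and 1066 with ΔFosB, with 0.31 (SE 0.08, adjusted p = 0.0358), and was lost after cyclic loess (adjusted p = 0.0975) and without control A, control B or ΔFosB B (adjusted p between 0.0858 and 0.165). The control mean of Podn, 812, lay in the receptors' range. Bgn, biglycan, had a log2 change of 0.17 (SE 0.13, adjusted p = 0.421) and Fmod had a log2 change of 0.37 (SE 0.21, adjusted p = 0.264). In Bgn, Fmod, Dcn, Podn and Prelp alike ΔFosB B was the highest array, as it was for the fibroblast markers other than Pdgfra. Dcn and Fmod are themselves among those markers. The list had 1 gene higher without control A, control B or ΔFosB B and 5 without ΔFosB A.

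The remaining lists had 0 genes past the threshold. Beside their counts at an unadjusted p below 0.05 in either direction, 4423 of all 14520 genes tested had such a p. Collagen receptors had 9 tested genes, 2 of them at an unadjusted p below 0.05, and a median of 0.13. Ddr2, a receptor tyrosine kinase for fibrillar collagen, had a log2 change of 0.32 (SE 0.10, adjusted p = 0.0586), and its relative Ddr1 had a log2 change of -0.18 (SE 0.07, adjusted p = 0.124). Itga10, an integrin chain for collagen, had a log2 change of 0.25 (SE 0.11, adjusted p = 0.168) and Itga1, another, had a log2 change of -0.15 (SE 0.08, adjusted p = 0.243). Both group means of Ddr2 and of Itga10 lay in the receptors' range. Basement membrane partners had 12 tested genes, 3 at an unadjusted p below 0.05, and a median of 0.08. Lamb3 and Lama1, both laminin chains, had log2 changes of 0.24 (SE 0.07, adjusted p = 0.0593) and, in that order, 0.23 (SE 0.09, adjusted p = 0.12), while Lama2, a laminin chain of the brain's vessels, had a log2 change of -0.14 (SE 0.08, adjusted p = 0.257) and Nid1, nidogen, which links laminin to type IV collagen, had a log2 change of -0.20 (SE 0.12, adjusted p = 0.308). The control mean of Lama1, 802, and both group means of Nid1 lay in the receptors' range. Collagen degradation had 8 tested genes, 3 at an unadjusted p below 0.05, and a median near 0. Timp2 and Timp3, inhibitors of metalloproteinases, had log2 changes of 0.13 (SE 0.04, adjusted p = 0.0851) and, in that order, 0.11 (SE 0.06, adjusted p = 0.244). Mmp15, a membrane-bound metalloproteinase, had a log2 change of -0.26 (SE 0.08, adjusted p = 0.0538) and passed after cyclic loess (adjusted p = 0.0454), and Timp4, a further inhibitor, had a log2 change of -0.15 (SE 0.06, adjusted p = 0.116). Without ΔFosB A, 2 receptor genes were higher and 1 degradation gene was lower, and without ΔFosB B 1 basement membrane gene was lower.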

How the data were processed

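RNA of mouse hypothalamus was hybridised to 4 one-colour Affymetrix arrays, 2 per group. The authors deposited linear probe set intensity values for 35474 probe sets, made with MAS5 per the submitters' processing notes. The sources used here state no further step of the authors. In total 16 columns of ratios were not used. Of the probe sets, 25175 carried a gene name and 23015 a single gene identifier, for 21265 genes. 21637 of those probe sets matched RefSeq. The array's build is not given, so no probe coordinates are printed.

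Intensities were log2 transformed without a further normalization. Each gene was taken from its probe set of highest mean log2 signal, and tested where that mean was in the upper 60% of all probe sets (a signal of 717), which left 14520 genes. The fit used limma 3.58.1 in R 4.3.3 (lmFit, eBayes with a trend on signal, no block), ΔFosB minus control, with Benjamini-Hochberg adjustment. It was tested on simulated data. Python 3.11.15 with pandas 2.3.3 and numpy 2.4.6 made the tables. The number of arrays limits the precision.

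Values on every array are given for Col1a1, Col1a2, members called with or without the filter and, per class, the 3 at either end of the moderated statistic. Each partner list gave up to 2 at either end. Igf2, Ogn, Fmod, Tek, Slco1a4, Rgs5, Kl, Folr1, Kcne2, Otx2, Ttr and Cga were named among the cell markers after their values were seen. Oxt, Trh, Pomc, Nr5a1, Npy, Sim1, Hcrt and Pmch were chosen likewise. Col13a1 and Col6a1 were also given by array after their values were seen. The members and lists were chosen with earlier results of these data known. Alternatives were other normalizations, filters, variance settings, a pseudocount of 64, the shared letters A and B as a block, and leaving out each array.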

Additional observations from a re-analysis of the deposited data

How the results depend on the processing

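Over all genes, 1902 were called with all 4 arrays. The unmoderated test called 0 (2690 at an unadjusted p below 0.05), the replicate block 3824, and the fits without one array between 702 and 1697, with 702 without control A and 1255 without control B. Of the collagens, 3 were called higher. Quantile normalization, median centring, no filter, cyclic loess and cyclic loess with no filter each left 1. The unmoderated test left 0 (7 at an unadjusted p below 0.05). The fits without one array gave between 0 and 4, with 0 without control A. The count of collagens called lower was 0 in all 20 settings, with at most 1 at an unadjusted p below 0.05, which after cyclic loess was Col11a1. The arrays share only the letters A and B. The A minus B differences of the 2 groups correlated at r = 0.24 across 14520 genes, which are not independent replicates. With the letters as a replicate block 14 of the 34 tested collagens were called higher, Col5a1, Col7a1 and Col9a2 among them. That block also raised the calls over all 14520 genes, in either direction, from 1902 to 3824.

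Of the collagens not called, 5 of those named by the rule changed sign. Col24a1 was -0.062 after quantile normalization, -0.043 after median centring, -0.076 after cyclic loess with or without the filter, and between -0.045 (without control A) and 0.080 (without control B) when one array was left out. Col8a2 was -0.048, -0.035 and -0.057 under the same settings, and between -0.065 (without ΔFosB A) and 0.12 (without ΔFosB B), with -0.0028 without control A. Col8a1 was -0.0045 after cyclic loess with or without the filter. Col4a4 was between -0.019 (without control A) and 0.31 (without control B), and Col19a1 between -0.033 (without ΔFosB A) and 0.022 (without ΔFosB B). Of the others, checked under cyclic loess and without each array, Col17a1 was -0.0050 after cyclic loess, and Col12a1, below the filter, -0.093 after cyclic loess with no filter and -0.020 without ΔFosB B. The causes were not tested. Cyclic loess, the filter at the receptors' 95th percentile and the filter counted over genes were chosen after seeing the data. Signal over background limits the 10 collagens that stayed in the receptors' range in both groups.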
